A study of Mus musculus with 12 samples.

Results

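The matrix metalloprotease (MMP), ADAMTS, ADAMTS-like and TIMP genes were described in 12 samples of tumour RNA from the mouse pancreatic cancer line CR705. Of these, 6 carry the label AHRKO, for a knockout of the gene of the aryl hydrocarbon receptor, and 6 carry the label WT, for wild type. The members were all protein-coding genes whose symbol is Mmp, Adamts, Adamtsl or Timp followed by digits and an optional letter, 50 of the 43432 genes in the count table: 22 Mmp, 19 Adamts, 5 Adamtsl and 4 Timp genes. The labels name the line, the genotype and pancreas as tissue. That the RNA came from tumours rests on the extraction text, whereas the growth and treatment texts describe plated cells with test compounds. The labels give no compound, batch, host strain or age, and do not say whether the knockout is 1 clone, whether the tumours came from separate animals, or where they were grown. Each p below therefore measures only the spread between these samples, which may in part be technical.

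MMPs are zinc-dependent proteases that cut collagens, elastin, proteoglycans and many signalling proteins. Some are secreted and others are anchored in the cell membrane. They are made as inactive precursors, and TIMPs block the active enzymes. ADAMTS proteases are secreted relatives that trim procollagens and cut large proteoglycans such as aggrecan and versican, while ADAMTS-like proteins share their accessory domains but lack the protease domain. In pancreatic cancer, which is known for its dense stroma, these genes are expressed by fibroblasts and leukocytes as well as by tumour cells. In bulk tumour RNA, a change in the number of cells of a type and a change in RNA per cell cannot be told apart.

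Libraries held 14772343 to 35881469 counts, and 15449 genes had enough counts to be tested. Levels are given as CPM, which divides a gene's counts by the TMM-scaled total of its library. Ahr itself was at 62.5 to 143 CPM in AHRKO and 101 to 125 CPM in WT (log2 fold change -0.13 ± 0.17, SE; adjusted p = 0.606), so that the transcript level does not separate the genotypes and is no check of the labels. AHRKO replicate 1 stood apart: its summed level of 13 fibroblast markers was 62200 CPM, against 10228 to 42859 CPM in the other libraries, that of 15 pan-leukocyte markers was 3609 CPM, and that of 10 ductal epithelial markers was 702 CPM, with the WT libraries at 3519 to 4993 CPM. Skeletal muscle markers reached 372 CPM in AHRKO replicate 2, with WT at 1.85 to 8.90 CPM, and adipocyte markers 702 CPM in AHRKO replicate 4, with WT at 25.2 to 110 CPM. Of 8 acinar markers Amy2a5 and Ptf1a had 0 counts in every library, and 1 of the 8, Cela1, had enough counts to be tested. Values without AHRKO replicate 1 are added where leaving it out changes a call or turns the direction of a gene named below.

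Of the 50 members, 40 had enough counts to be tested and 10 did not. Between AHRKO and WT 8 of the 40 changed, 6 higher and 2 lower, at an adjusted p under 0.05 (edgeR, adjusted by Benjamini-Hochberg over all tested genes). This share, 20%, lay below the 29.5% of all tested genes that were called. The 15% of tested members called higher compare with 15.9% of all tested genes, and the 5% called lower with 13.6%. The median log2 fold change of the 40 was -0.04, against 0.02 for all tested genes. The members that were higher were Mmp8, Mmp12, Mmp25, Mmp28, Adamtsl3 and Adamtsl4, and those lower were Mmp15 and Adamts3. No TIMP gene was called. In Mmp12, Adamtsl4, Mmp15 and Adamts3 the 6 AHRKO libraries did not overlap the 6 WT libraries, as in 13.4% of all tested genes.

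**Figure D1:**
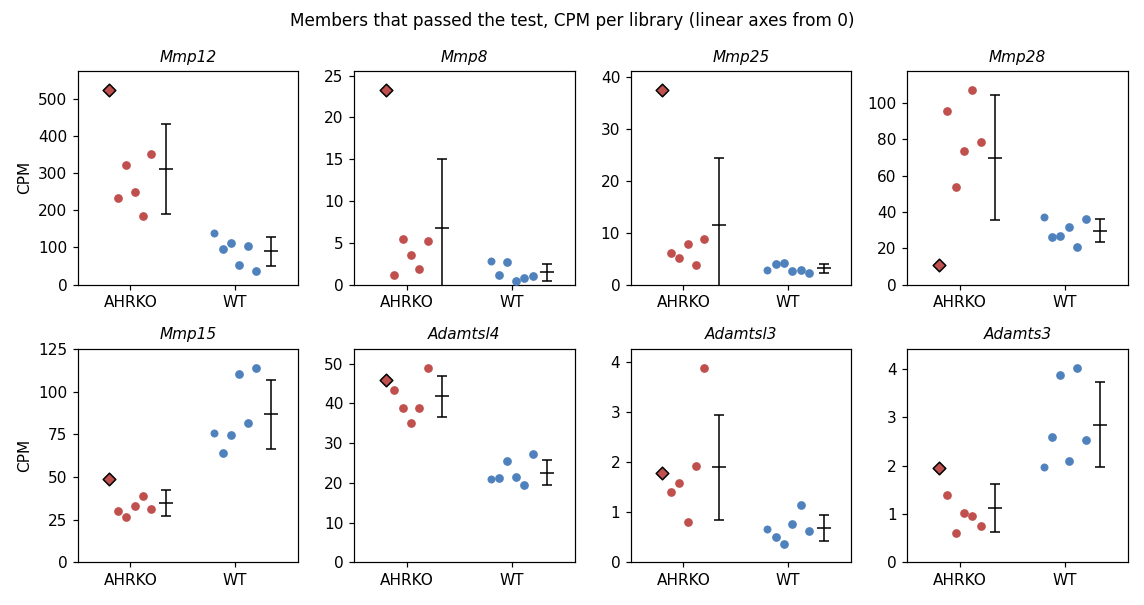
CPM per library (y axis, linear from 0) of the 8 members that passed the test, with AHRKO left and WT right. Points are libraries, the outlined diamond is AHRKO replicate 1, and bars are mean ± SD (n = 6 per group; lower ends below 0 are not drawn). Mmp8 and Mmp25 are highest in AHRKO replicate 1, at 23.3 and 37.5 CPM, while Mmp28 is lowest there, at 10.7 CPM.

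Among the secreted MMPs, Mmp12, the elastase of macrophages, rose in AHRKO (ENSMUSG00000049723, mm10 chromosome 9, 7344381 to 7369499, plus strand). Its lowest, median and highest library stood at 184, 286 and 523 CPM in AHRKO, against 35.8, 99.5 and 138 CPM in WT. Every AHRKO library was above every WT library, and AHRKO replicate 1 was the highest. The fold change was 3.48 (log2 1.80 ± 0.33, SE; adjusted p = 0.00248, edgeR's quasi-likelihood test). Without AHRKO replicate 1 the log2 value was 1.59, still called (adjusted p = 0.00224). The end of the gene overlaps Mmp1b on the opposite strand, which had at most 3 counts in a library. How many reads the overlap shares was not tested.

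Beside Mmp12, 11 of 13 macrophage and monocyte markers were also higher in AHRKO, among them C1qa, a complement subunit, and Csf1r, the receptor of a macrophage growth factor. The summed level of the 13 markers ran from 1249 to 7438 CPM in AHRKO and from 951 to 1794 CPM in WT, with 5 of 6 AHRKO libraries above all WT. None of the 13 was at 0, and 10 of the 13 were higher when AHRKO replicate 1 was left out. A score over 15 pan-leukocyte markers (their average log2 CPM) was entered as a covariate in a further fit, where the log2 fold change of Mmp12 was 1.09, not called (adjusted p = 0.0821). The score itself was 4.84 to 7.45 in AHRKO and 3.99 to 4.86 in WT, so that in this fit group and score share much of their variation. The part of macrophage content in the difference was not tested.

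Mmp8, a collagenase best known from neutrophils, also rose (ENSMUSG00000005800, chromosome 9, 7558456 to 7568485, plus strand). It stood at 1.16, 4.43 and 23.3 CPM (lowest, median, highest) in AHRKO, against 0.461, 1.12 and 2.77 CPM in WT. The groups overlapped, and AHRKO replicate 1 held the highest value by far, with the other 5 AHRKO libraries at 5.43 CPM or less. The log2 fold change of 2.18 ± 0.70 (SE; adjusted p = 0.034, edgeR's quasi-likelihood test) was 1.21 without AHRKO replicate 1, then not called (adjusted p = 0.0788), and 0.044 beside the pan-leukocyte score (adjusted p = 0.973). The call also ended without WT replicate 2, 4, 5 or 6, at log2 fold changes of 2.12, 1.995, 2.04 and 2.10 (adjusted p of at most 0.0726). Of 12 neutrophil markers 7 were tested, with a median log2 fold change of 1.27. Padi4 and Retnlg, 2 of the 7, were called higher and 0 were called lower. The summed level of the 12 was 55.1 to 285 CPM in AHRKO and 21.9 to 122 CPM in WT, with the highest value in AHRKO replicate 1. The neutrophil gene Ly6g averaged 0.077 CPM in AHRKO and 0.068 CPM in WT, too low to compare the groups.

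Mmp28, or epilysin, a secreted MMP found in epithelia, was higher in 5 of 6 AHRKO libraries (ENSMUSG00000020682, chromosome 11, 83440768 to 83463071, minus strand). It stood at 10.7, 76.1 and 107 CPM (lowest, median, highest) in AHRKO, against 20.4, 29.2 and 37.4 CPM in WT. Replicates 2 to 6 of AHRKO, at 53.6 to 107 CPM, were all above WT, and AHRKO replicate 1 was below all WT libraries. Ductal epithelial markers were lowest in the same library, and their part in its Mmp28 level was not tested. The log2 fold change was 1.23 ± 0.39 (SE; adjusted p = 0.0325, edgeR's quasi-likelihood test). Leaving out AHRKO replicate 1 gave 1.46 ± 0.19 (adjusted p = 0.000232), whereas the call ended without any 1 of AHRKO replicates 2, 4, 5 and 6 or of WT replicates 2 to 5, at log2 fold changes from 1.07 to 1.25 and adjusted p from 0.0542 to 0.0715. Beside the fibroblast score described below it stood at 0.67, not called (adjusted p = 0.0945), and beside the pan-leukocyte score at 2.64, called (adjusted p = 0.00101). A gene on the opposite strand that overlaps it, 1700020L24Rik, had up to 372 counts in a library, and it is not known here whether the counting used strand.

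The other secreted MMPs did not pass with all 12 libraries. Mmp2, a gelatinase of stromal cells, stood at 142, 226 and 1660 CPM (lowest, median, highest) in AHRKO, against 231, 378 and 718 CPM in WT. AHRKO replicate 1 lay far above WT, 4 AHRKO libraries lay below all WT libraries, and 1 within the WT range. The log2 fold change was 0.06 ± 0.58 (SE; adjusted p = 0.954). Mmp9, a gelatinase of leukocytes and tumour cells, stood at 121, 199.8 and 318 CPM in AHRKO, against 77.8, 291 and 412 CPM in WT. All 6 AHRKO libraries lay inside the WT range (log2 fold change -0.39 ± 0.40, SE; adjusted p = 0.487).

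Mmp3, a stromelysin that also activates other MMPs, was at 50.6, 93.6 and 525 CPM in AHRKO, against 30.4, 106 and 462 CPM in WT. Mmp13, a collagenase, was at 44.1, 75.9 and 259 CPM in AHRKO, against 33.1, 57.0 and 325 CPM in WT. The groups overlapped over most of their range for both genes, with log2 fold changes of -0.36 ± 0.72 for Mmp3 and 0.02 ± 0.60 for Mmp13 (SE; adjusted p = 0.735 and 0.982, edgeR's quasi-likelihood test). The remaining tested secreted MMPs, Mmp10, Mmp11 and Mmp19, had log2 fold changes of -0.51, -0.22 and -0.12, none called. Mmp13 turned to -0.51 without AHRKO replicate 1, also not called (adjusted p = 0.5).

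**Figure D2:**
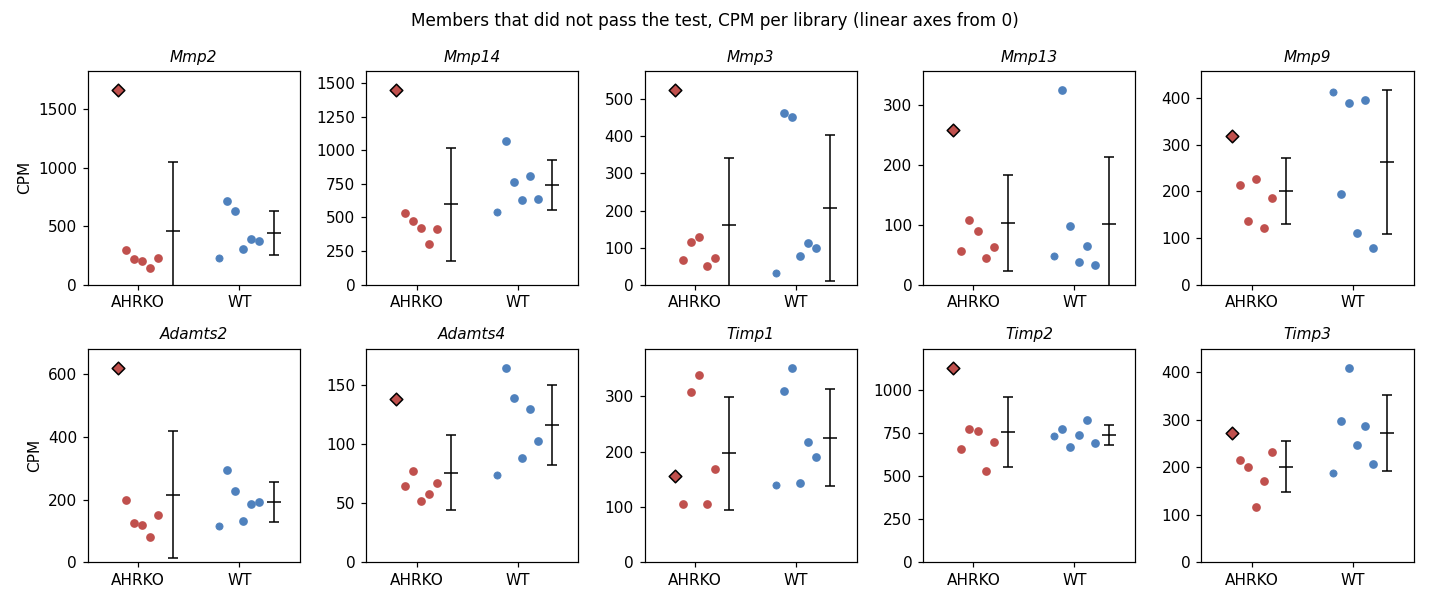
CPM per library (y axis, linear from 0) of 10 members that did not pass the test with all 12 libraries, with AHRKO left and WT right. Points are libraries, the outlined diamond is AHRKO replicate 1, and bars are mean ± SD (n = 6 per group; lower ends below 0 are not drawn). For Mmp2, Mmp14, Mmp3, Adamts2 and Timp2 the AHRKO replicate 1 library lies above every other library.

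The genes Mmp13, Mmp12, Mmp1b, Mmp3, Mmp10, Mmp8, Mmp27, Mmp20 and Mmp7 lie side by side on mm10 chromosome 9, between 7272514 and 7699585. Of these 9 genes 5 were tested: Mmp12 and Mmp8 were higher in AHRKO, and Mmp13, Mmp3 and Mmp10 were not called. Known regulation of several of these genes runs through AP-1, a dimer of JUN and FOS proteins, and the region from 250 bases before to 50 bases after the start of transcription was therefore searched for its site TGAGTCA on both strands (RefSeq sequences, build GRCm38.p6). Promoter sequences were found for 35 of the 50 members, with 38 starts in all. The site stood in 6 of these 38 windows, or 15.8%, and in 5.2% of all 32851 windows. Each of the 6 belongs to the chromosome 9 cluster, all 9 genes of which had a window. Members without a window, Mmp2, Mmp9 and Adamts4 among them, were not searched. Whether the site is confined to the cluster is therefore not known. They are shown to let the neighbours of the site be compared, with the 7 bases of the site in capitals and 10 bases on each side, read along the gene's own strand.

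Mmp13: cccaaagtggTGACTCAtcactatcat
Mmp12: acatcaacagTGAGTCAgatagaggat
Mmp1b: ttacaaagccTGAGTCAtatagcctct
Mmp3: gaagcaattaTGAGTCAgttttcgggt
Mmp10: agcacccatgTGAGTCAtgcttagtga
Mmp7: agtgtgcaaaTGAGTCAcctatttcca

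The windows lie at chr9:7272469-7272495 for Mmp13, chr9:7347320-7347346 for Mmp12, chr9:7388103-7388129 on the minus strand for Mmp1b, chr9:7445766-7445792 for Mmp3, chr9:7502269-7502295 for Mmp10 and chr9:7692017-7692043 for Mmp7. The first base of the site lies 35, 44, 93, 46, 63 and 63 bases before the start in that order, written as -35, -44, -93, -46, -63 and -63. Mmp12 and Mmp7 have 2 starts each in RefSeq. The site is at the downstream start of Mmp12 and at the upstream start of Mmp7, and the other window of each has none. Genes with the site were thus found both among those called (Mmp12) and among those not called (Mmp13, Mmp3 and Mmp10), and Mmp8, which was called, has no such letters in its window. A match describes the letters of the window and does not show binding.

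Among the membrane-anchored MMPs, Mmp15 fell in AHRKO (ENSMUSG00000031790, chromosome 8, 95352268 to 95375080, plus strand). It encodes a transmembrane protease related to Mmp14. The lowest, median and highest library stood at 26.6, 32.1 and 48.6 CPM in AHRKO, against 64.1, 78.6 and 114 CPM in WT, with no overlap. The level was 2.49-fold lower in AHRKO (log2 fold change -1.32 ± 0.18, SE; adjusted p = 0.000436, edgeR's quasi-likelihood test), and the log2 value was -1.43 without AHRKO replicate 1. Chromosome 8, which carries Mmp15 and Mmp2, had a median log2 fold change of -0.31 over its 826 tested genes, and 40% of them were called lower; the part of this shift in the Mmp15 difference was not tested.

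Mmp25, a protease held to the membrane by a lipid anchor and best known from leukocytes, rose (ENSMUSG00000023903, chromosome 17, 23628311 to 23645277, minus strand). It stood at 3.80, 7.004 and 37.5 CPM (lowest, median, highest) in AHRKO, against 2.24, 2.87 and 4.19 CPM in WT. In 5 of 6 AHRKO libraries it was above all WT libraries, and AHRKO replicate 1 was far above the next highest library, which had 8.74 CPM. The log2 fold change was 1.88 ± 0.52 (SE; adjusted p = 0.0173), and 1.01 ± 0.25 without AHRKO replicate 1 (adjusted p = 0.0079, edgeR's quasi-likelihood test). Its sign turned when the pan-leukocyte score entered the fit, to -0.36, not called (adjusted p = 0.317). All 15 pan-leukocyte markers were higher in AHRKO, with a summed level of 624 to 3609 CPM in AHRKO and 367 to 653 CPM in WT, and none was at 0. Of T cell markers 7 of 7, and of tested mast cell markers 5 of 6, were higher as well, and the part of leukocyte content in the Mmp25 difference was not tested.

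Mmp14, the transmembrane protease that activates Mmp2, stood at 305, 446 and 1447 CPM (lowest, median, highest) in AHRKO, against 541, 699.9 and 1068 CPM in WT. Replicates 2 to 6 of AHRKO lay at 305 to 530 CPM, below every WT library, and AHRKO replicate 1 lay above every WT library. With all libraries the log2 fold change was -0.31 ± 0.34 (SE; adjusted p = 0.520). Without AHRKO replicate 1 it was -0.79 ± 0.19 and was called (adjusted p = 0.00631, edgeR's quasi-likelihood test). The membrane-bound members Mmp17, Mmp23 and Mmp24 had log2 fold changes of 0.66, -0.05 and 0.14, none called with all libraries, and Mmp23 was called lower without AHRKO replicate 1 (-0.72, adjusted p = 0.0295).

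Of the 16 tested ADAMTS genes 1 was called. Adamts3, which trims the amino-terminal propeptide of procollagens and takes part in activating the lymphatic growth factor VEGF-C, fell in AHRKO (ENSMUSG00000043635, chromosome 5, 89677087 to 89883334, minus strand). It was measured at 0.618, 0.995 and 1.96 CPM (lowest, median, highest) in AHRKO, against 1.98, 2.56 and 4.02 CPM in WT. The groups did not overlap, though the highest AHRKO and the lowest WT library nearly met. The level was 2.52-fold lower in AHRKO (log2 fold change -1.33 ± 0.30, SE; adjusted p = 0.00679), and -1.56 without AHRKO replicate 1 (adjusted p = 0.0015, edgeR's quasi-likelihood test).

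The related procollagen-trimming gene Adamts2 was at 79.6, 139 and 620 CPM in AHRKO, against 117, 190 and 294 CPM in WT. Here too AHRKO replicate 1 was the highest library and the groups overlapped (log2 fold change 0.17 ± 0.45, SE; adjusted p = 0.804). Adamts14, the remaining gene of this role, stood at 0.01 and was not called. Adamts2 turned to -0.51 and Adamts14 to -0.41 without AHRKO replicate 1, neither of them called (adjusted p = 0.148 and 0.175). Per kilobase of annotated exon the mean level of Adamts2 was 23.1 CPM in AHRKO and 20.6 CPM in WT, and that of Adamts3 was 0.206 CPM in AHRKO and 0.524 CPM in WT.

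Among the proteases of aggrecan and versican, Adamts4 stood at 51.8, 65.8 and 138 CPM in AHRKO, against 73.9, 116 and 165 CPM in WT. In 4 of 6 AHRKO libraries it was below all WT libraries (log2 fold change -0.62 ± 0.25, SE; adjusted p = 0.0839), and without AHRKO replicate 1 it was called, with a value of -0.87 and an adjusted p of 0.0051 (edgeR). Adamts1 was at 51.2, 59.7 and 120 CPM in AHRKO, against 49.5, 60.3 and 77.3 CPM in WT, and was not called (log2 fold change 0.14 ± 0.21, SE; adjusted p = 0.633; -0.084 without AHRKO replicate 1). Adamts5, Adamts9 and Adamts15 had log2 fold changes of 0.87, -0.46 and 0.46, none called. When AHRKO replicate 1 was left out these were 0.26, not called (adjusted p = 0.533), -0.67, called lower (adjusted p = 0.013), and -0.75, not called (adjusted p = 0.0838), so that the sign of Adamts15 turned. Adamts5 was called in opposite directions by the fits with a marker score, lower beside the pan-leukocyte score (-0.99, adjusted p = 0.0163) and higher beside the fibroblast score (1.103, adjusted p = 0.000669). The lowest value among ADAMTS genes that were not called was that of Adamts16, at -1.56 ± 0.61 (SE; adjusted p = 0.07, edgeR; 0.0277 in DESeq2's Wald test), with 5 of 6 AHRKO libraries below all WT.

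Of the 5 ADAMTS-like genes, all tested, 2 rose. Adamtsl4, whose protein binds fibrillin microfibrils and is mutated in human lens dislocation, had the smallest p of all members (ENSMUSG00000015850, chromosome 3, 95676201 to 95687917, minus strand). It stood at 35.0, 41.1 and 48.9 CPM (lowest, median, highest) in AHRKO, against 19.4, 21.3 and 27.3 CPM in WT. The groups did not overlap, and AHRKO replicate 1, at 45.8 CPM, lay among the other AHRKO libraries. The level was 1.85-fold higher (log2 fold change 0.89 ± 0.11, SE; adjusted p = 0.000303, edgeR's quasi-likelihood test). In fits that left out 1 library it ranged from 0.84 to 0.95.

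The promoter of Adamtsl4 is shown because it holds GCGTG, the core of the element that the aryl hydrocarbon receptor binds, at 3 places, printed in capitals. The window runs from 250 bases before to 50 bases after the start, chr3:95687868-95688167, minus strand (RefSeq, GRCm38.p6).
Adamtsl4: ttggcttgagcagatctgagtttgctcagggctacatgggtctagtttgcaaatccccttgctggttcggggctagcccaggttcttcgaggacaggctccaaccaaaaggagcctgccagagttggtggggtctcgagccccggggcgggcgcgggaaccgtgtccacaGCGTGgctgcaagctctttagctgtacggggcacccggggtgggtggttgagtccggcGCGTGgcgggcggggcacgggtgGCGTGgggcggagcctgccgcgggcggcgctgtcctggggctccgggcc
The matches begin at -80, -22 and 2, counted from the start. GCGTG, searched on both strands, stood in 14 of the 38 member windows (36.8%) and in 32.4% of all 32851 windows. These shares are of windows with at least 1 match, and windows with 3 were not counted. A match describes letters and does not show binding. Among the members called, Adamts3 and Mmp25 also hold it, at 1 place each, and the windows of Adamtsl3, Mmp8, Mmp12, Mmp15 and Mmp28 do not.

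Adamtsl3, a matrix protein of the same group, was low in both groups (ENSMUSG00000070469, chromosome 7, 82335694 to 82614450, plus strand). It stood at 0.798, 1.68 and 3.88 CPM in AHRKO, against 0.373, 0.646 and 1.14 CPM in WT, with 5 of 6 AHRKO libraries above all WT. The log2 fold change was 1.48 ± 0.37 (SE; adjusted p = 0.0111, edgeR's quasi-likelihood test). Chromosome 7 had a median log2 fold change of 0.205 over its 1164 tested genes. Of these 25.3% were called higher, against 15.9% of all tested genes. The part of this shift in the Adamtsl3 difference was not tested. Adamtsl1, Adamtsl2 and Adamtsl5 stood at -0.32, 0.85 and -0.09 and were not called, and Adamtsl1 was called lower without AHRKO replicate 1 (-0.78, adjusted p = 0.0487).

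None of the 3 tested inhibitors passed the test with all libraries and no covariate. Timp2, which also helps Mmp14 to activate Mmp2, stood at 529, 732 and 1129 CPM (lowest, median, highest) in AHRKO, against 669, 737 and 828 CPM in WT. Its log2 fold change was 0.04 ± 0.15 (SE; adjusted p = 0.883), and -0.11 without AHRKO replicate 1 (adjusted p = 0.427). Timp1, a secreted inhibitor induced in inflammation, stood at 105, 163 and 338 CPM in AHRKO, against 140, 204 and 351 CPM in WT (log2 fold change -0.19 ± 0.34, SE; adjusted p = 0.7, edgeR's quasi-likelihood test). Timp3, which binds the matrix and also blocks ADAMTS enzymes, stood at 117, 208 and 273 CPM in AHRKO, against 187, 267 and 408 CPM in WT. Timp3 was below the WT median in 5 of 6 AHRKO libraries, at a log2 fold change of -0.44 ± 0.22 (SE; adjusted p = 0.148). Beside the pan-leukocyte score both Timp3 (-0.91, adjusted p = 0.0308) and Timp2 (-0.485, adjusted p = 0.035) were called lower. Mean levels per kilobase of exon were 222 CPM for Timp1, 195 CPM for Timp2 and 24.7 CPM for Timp3 in AHRKO, and 253, 190 and 33.4 CPM in WT. Timp1 and Timp3 overlap Syn1 and Syn3, genes of the opposite strand that had up to 742 and 43 counts in a library.

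Leaving out AHRKO replicate 1 changed the count of members more than leaving out any other library. The 17 members then called, 42.5% of 40, compare with 36.9% of all tested genes. Without it 5 of 40 tested members were higher (12.5%, against 19.1% of all tested genes) and 12 were lower (30%, against 17.8%). The median log2 fold change of the 40 members was then -0.49, and 30 of them were below 0, compared with a median of -0.04 and 21 below 0 with all libraries. The lower members were Mmp15 and Adamts3, as before, with Mmp2 (-1.02 ± 0.29, SE; adjusted p = 0.0168, edgeR's quasi-likelihood test), Mmp14, Mmp23, Adamts4, Adamts6, Adamts9, Adamts10, Adamts12, Adamts16 and Adamtsl1. The largest fall among them was that of Adamts16, at -2.35 ± 0.48 (adjusted p = 0.00313), followed by Adamts12 at -1.31 ± 0.38 (adjusted p = 0.0178). The sign of 9 of the 32 members not called turned without this library, all to values below 0, and Mmp2 was the 1 of these 9 that was then called. Leaving out any of the other 11 libraries gave 4 to 6 higher and 2 lower members. In these fits 15% to 20% of tested members and 22.1% to 31.2% of all tested genes were called. In limma-voom with sample quality weights, which gives libraries that stand apart less weight, 6 members were higher (19.9% of all tested genes were) and 9 were lower (19.1%), with 39% of all tested genes called in either direction. With the leukocyte score in the fit 3 members were higher (7.5% of 40, against 12.1% of all tested genes) and 23 lower (57.5%, against 13.6%). In either direction 65% of the tested members and 25.7% of all tested genes were called.

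**Figure D3:**
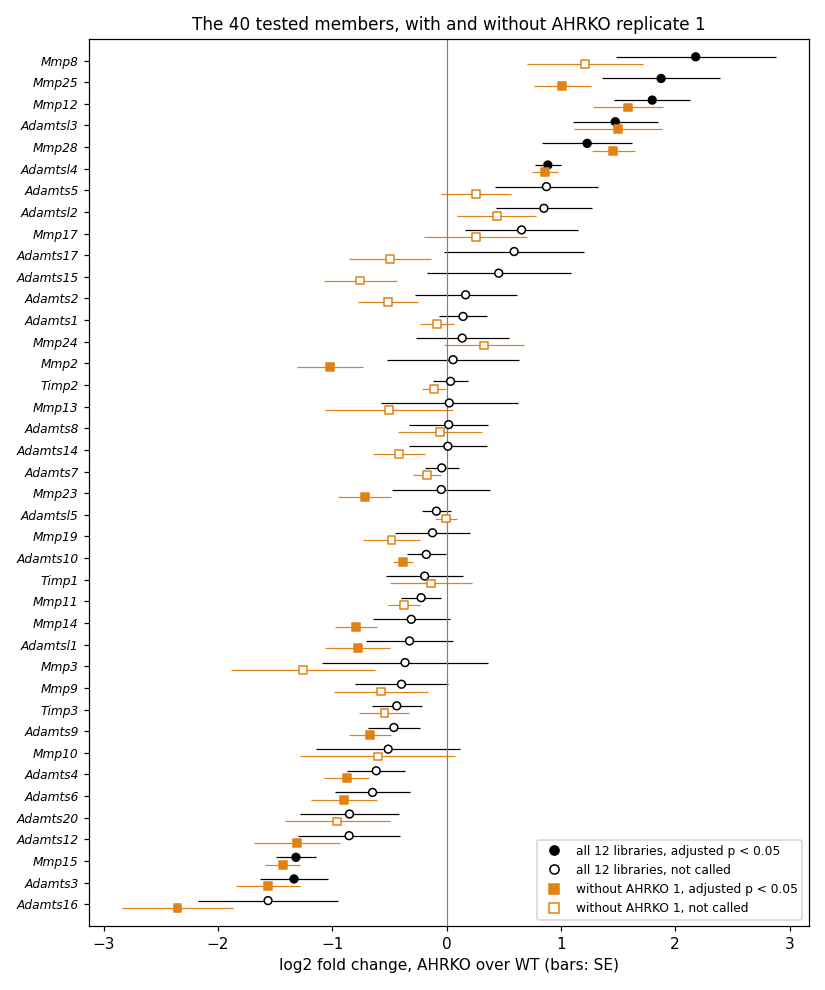
Log2 fold change, AHRKO over WT, with its SE (x axis) for the 40 tested members (rows). Black circles are fits of all 12 libraries and orange squares fits without AHRKO replicate 1; filled symbols mark adjusted p under 0.05 (edgeR). Without that library 12 members lie below 0 and pass, against 2 with it, and Mmp2 stands at -1.02 in place of 0.06.

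Several stromal members varied with the fibroblast markers from library to library. The fibroblast score, the mean log2 CPM of 13 markers, was 7.55 to 9.86 in AHRKO and 8.06 to 9.28 in WT, and 0 of the 13 markers were called. In the fit without AHRKO replicate 1, 8 of the 13 were called lower. Their summed level was 10228 to 62200 CPM in AHRKO and 17669 to 42859 CPM in WT, and none was at 0. Relations to this score were computed for 15 members in each group, 30 in all, with members picked after their values were seen and with no member among the markers. For Mmp2 Pearson's r was 0.986 in AHRKO (exact permutation p = 0.00139, adjusted p = 0.0167; Spearman's rho 1, exact p = 0.00278, adjusted 0.0278) and 0.984 in WT (exact permutation p = 0.00278, adjusted p = 0.0167; rho 0.943, exact p = 0.0167, adjusted 0.0716), with n = 6 in each. Leaving out the 2 libraries farthest from the median score gave 0.996 in AHRKO and 0.984 in WT. Adamts2 followed the score as closely, with r of 0.997 in AHRKO and 0.957 in WT (exact permutation p = 0.00139 and 0.0111, adjusted 0.0167 and 0.0416; rho 1 and 0.886, exact p = 0.00278 and 0.0333, adjusted 0.0278 and 0.111), and r of 0.950 and 0.992 without the 2 farthest libraries.

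The adjusted p of Pearson's r passed 0.05 in both groups for 2 of the 15 members, Mmp2 and Adamts2. It passed in AHRKO alone for Mmp14, in WT alone for Mmp3, Adamts4 and Timp1, and in neither group for the other 9, and the difference between the groups was not tested. For Mmp14 r was 0.989 in AHRKO (exact permutation p = 0.00556, adjusted p = 0.0278; rho 0.829, exact p = 0.0583, adjusted 0.159) and 0.842 in WT (exact permutation p = 0.0361, adjusted p = 0.0924; rho 0.829, exact p = 0.0583, adjusted 0.159), and without the 2 farthest libraries it was 0.855 in AHRKO and 0.923 in WT. For Adamts4 r was 0.901 in AHRKO (exact permutation p = 0.0431, adjusted p = 0.0924; rho 0.714, exact p = 0.136, adjusted 0.255) and 0.951 in WT (exact permutation p = 0.00278, adjusted p = 0.0167; rho 0.943, exact p = 0.0167, adjusted 0.0716), and without the 2 farthest it was 0.247 in AHRKO, so that this value rests on those, and 0.942 in WT. For Mmp3 r was 0.862 in AHRKO (exact permutation p = 0.0694, adjusted p = 0.116; rho 0.429, exact p = 0.419, adjusted 0.524), and -0.776 without the 2 farthest libraries, so that the positive value rests on those. In WT it was 0.985 (exact permutation p = 0.00278, adjusted p = 0.0167; rho 0.943, exact p = 0.0167, adjusted 0.0716), and 0.963 without the 2 farthest. For Timp1 r was -0.113 in AHRKO (exact permutation p = 0.890, adjusted p = 0.954; rho -0.314, exact p = 0.564, adjusted 0.677) and 0.957 in WT (exact permutation p = 0.00694, adjusted p = 0.0297; rho 1, exact p = 0.00278, adjusted 0.0278), and without the 2 farthest libraries it was -0.910 in AHRKO and 0.985 in WT. With the fibroblast score as a covariate, added after the data were seen, 8 of 40 members were higher (20%, against 21.9% of all tested genes) and 4 were lower (10%, against 20.9%), with 42.8% of all tested genes called in either direction. Mmp2 was not called (log2 fold change 0.13, adjusted p = 0.386, edgeR), whereas Adamts2 was called higher (0.32, adjusted p = 0.0126). Adamts5 and Adamtsl2 were also newly called higher, and Adamts4 and Adamts16 newly called lower. Mmp8, Mmp12, Mmp15, Mmp25, Adamts3, Adamtsl3 and Adamtsl4 kept their direction and their call, and Mmp28 lost its call.

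**Figure D4:**
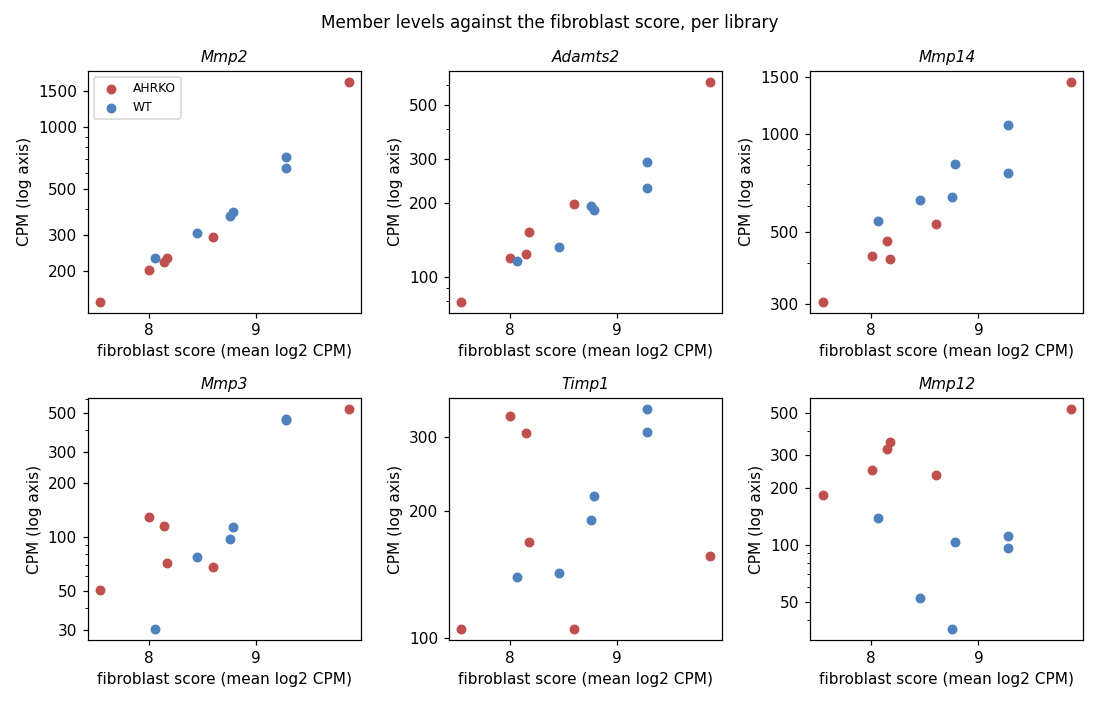
CPM of 6 members (y axis, log scale) against the fibroblast score (x axis, mean log2 CPM of 13 markers), 1 point per library, AHRKO in red and WT in blue. Mmp2 and Adamts2 rise with the score within both groups, with AHRKO replicate 1 at the upper end (score 9.86). Mmp12 lies higher in every AHRKO library than in any WT library.

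The 10 members with too few counts to be tested had at most 29 counts in any library. They were Mmp1b, Mmp7, Mmp16, Mmp20, Mmp21, Mmp27, Adamts13, Adamts18, Adamts19 and Timp4. Mmp7, an epithelial MMP found in many pancreatic cancers, was at 0 to 0.194 CPM in AHRKO and 0 to 0.051 CPM in WT. When no filter was applied, Adamts18 and Adamts19 were called higher. In that fit 8 of 50 members were higher (16%, against 7.43% of the 29021 genes then tested) and 2 lower (4%, against 6.49%), while 13.9% of all genes were called. These shares are not alike in make-up, since 13572 of the 29021 genes but only 10 of the 50 members fail the filter. With the filter the shares called higher were 15% of members and 15.9% of all tested genes. Of the Adamts18 counts, 29 lay in AHRKO replicate 1, and each other library held 9 or fewer.

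Genes that work with these families changed in part. Among 21 tested activators, anchors and inhibitors from outside the families, 0 rose and 2 fell, against 15.9% and 13.6% of all tested genes. Those lower were Pcsk5, a proprotein convertase, at a log2 fold change of -1.18, and Tfpi2, a serine protease inhibitor of the matrix, at -0.69 (adjusted p of at most 0.0339, edgeR). In the fit without AHRKO replicate 1 the list had 1 higher and 3 lower genes (19.1% and 17.8% of all tested genes). The call of Tfpi2 ended without any 1 of 9 libraries, namely AHRKO replicate 2, 4, 5 or 6 or WT replicate 2, 3, 4, 5 or 6 (adjusted p of at most 0.0763). Furin, the convertase that removes the propeptide of membrane-type MMPs, was at 0.16, Plau, which encodes urokinase, at 0.53, and Reck, a membrane-anchored inhibitor, at -0.03, none called.

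Of 14 tested ADAM and astacin proteases 2 rose and 1 fell, against 15.9% and 13.6% of all tested genes. Adam8, a leukocyte protease, stood at a log2 fold change of 1.13 (0.74 without AHRKO replicate 1; not called without WT replicate 4 or 5, adjusted p of at most 0.0527), Adam15 at 0.79 and Adam10, a sheddase of many surface proteins, at -0.47. Bmp1, which trims the carboxy-terminal propeptide of procollagens, was at -0.24 and not called. Without AHRKO replicate 1 the list had 2 higher and 5 lower genes, Bmp1 among the lower, against 19.1% and 17.8% of all tested genes.

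Among 22 tested matrix substrates 0 rose and 4 fell, against 15.9% and 13.6% of all tested genes. Those lower were Tnc, the matrix protein tenascin-C, at -1.63, Fbn2, a fibrillin, at -1.34, the proteoglycan gene Vcan at -0.93 and Fn1, which encodes fibronectin, at -0.49 (adjusted p of 0.044 at most, edgeR's quasi-likelihood test). Fn1 was not called without AHRKO replicate 2, 4, 5 or 6 or WT replicate 2, 3, 4, 5 or 6 (adjusted p of at most 0.0941). Without AHRKO replicate 1, 10 of the 22 were lower (17.8% of all tested genes were), Col1a1, Col1a2 and Col3a1 among them, which are also fibroblast markers here. Tnc was at 1075 CPM on average in AHRKO and 3336 CPM in WT.

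Of 19 tested inducers and AP-1 or ETS factors 3 rose and 1 fell (15.9% and 13.6% of all tested genes), and 4 rose and 1 fell without AHRKO replicate 1 (19.1% and 17.8%). The cytokine genes Tnf and Il1b stood at 1.61 and 1.32, Jun at 0.27 and Junb at -0.55. Without AHRKO replicate 1 Il1b was at 0.88 (adjusted p = 0.0422), and it was not called without WT replicate 4 or 5 (adjusted p of at most 0.0617). Jun lost its call without AHRKO replicate 2, 3, 4 or 6 or WT replicate 1, 4, 5 or 6 (adjusted p of at most 0.0787). The FOS family members Fos, Fosb, Fosl1 and Fosl2 were at -0.45, -0.18, -0.41 and -0.0059, none called.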

How the data were processed

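RNA of 12 tumour samples was selected with poly-T beads and sequenced on an Illumina instrument, per the labels' protocols. The growth text in the labels also describes cultured cells with test compounds, though none is named for any sample. HISAT2, SAMtools, HTSeq and DESeq2 were used with mm10, per the submitters' processing notes. Annotation, versions and strand setting were not stated in any source used. It is therefore not known whether reads of genes that overlap on opposite strands were told apart. Not every overlap is reported here. The authors' deposited file gives raw counts by gene. Columns were matched to samples by name.

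Symbols and coordinates came from GENCODE M21 (mm10), which matched 42548 of 43432 identifiers. Genes passing edgeR's filterByExpr were scaled by TMM and tested with edgeR's quasi-likelihood test (edgeR 4.0.16, R 4.3.3), and p-values were adjusted by Benjamini-Hochberg over the 15449 genes, with a threshold of 0.05. SE is the log2 fold change over the root of F. Scores use log2 CPM with a prior count of 2. Alternatives used limma 3.58.1 and DESeq2 1.42.0. The steps were tested on simulated data. No 2 libraries of a group agreed within sampling noise (lowest chi-squared per degree of freedom 13.6). Depth covers counting error only.

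Members and lists were chosen with earlier results of these data known. Values per library were given for all called members, the tested TIMPs and 8 further tested members with the highest CPM. From each related list up to 4 called genes with the smallest p were named. Genes named beside these were chosen after their values were seen.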

Additional observations from a re-analysis of the deposited data

Results flagged for a closer look

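In 38 checks, of 19 members in each group of 6 libraries on the log2 scale, 4 values lay apart from the rest of their group by Dixon's test at the 95% level, and all 4 were of AHRKO replicate 1; chance flags about 1 in 20 groups. Mmp2 stood at 1660 CPM and Mmp14 at 1447 CPM in that library, far above the next AHRKO library. Mmp25 was also highest there, at 37.5 CPM. Mmp28 was lowest there, at 10.7 CPM. The same library had the highest fibroblast and pan-leukocyte marker sums and the lowest ductal one, and their part in these 4 values was not tested.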

How the results depend on the processing

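Across 19 members and their alternatives, 324 of 379 values kept direction and call. With direction kept, 18 lost their call and 10 gained one. Another 27 changed sign, some of them also gaining or losing a call. Adamtsl4, Mmp15 and Adamts3 were called under all 20 alternatives, and Adamtsl3 under the 19 in which it was tested. Fits that left out 1 library gave 2 to 12 lower and 4 to 6 higher members. In these fits 15% to 42.5% of tested members and 22.1% to 36.9% of all tested genes were called. With limma-voom and sample quality weights 9 members were lower (19.1% of all genes lower). With a pan-leukocyte covariate 3 were higher (7.5% of members, against 12.1% of all genes) and 23 lower (57.5%, against 13.6%). With the fibroblast score, a covariate chosen after seeing the data, 4 were lower, with 3231 genes lower in all. With the replicate number as a block, 1114 genes rose and 1240 fell, in place of 2451 and 2106. Mmp25 and Mmp28 were not called in that fit, at log2 fold changes of 1.39 and 1.06 (adjusted p = 0.0844 and 0.174, edgeR). The labels do not say that the numbers pair the samples. Same-numbered libraries correlated at -0.468 to 0.0292, and 0 of 6 AHRKO libraries correlated best with their own number. With 6 pairs this cannot exclude pairing.

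Of the 32 members not called, 20 changed sign under at least 1 alternative, and the cause was not tested. Values are log2 fold changes. In the pan-leukocyte fit 13 of them turned and 9 of the 13 were called lower, Mmp2 at -2.47, Adamts15 at -2.15, Adamts17 at -1.89, Adamts2 at -1.76, Mmp13 at -1.76, Adamts14 at -1.305, Adamts5 at -0.99, Adamts1 at -0.57 and Timp2 at -0.485. Mmp17 at -0.82, Adamts8 at -0.61, Adamtsl2 at -0.20 and Adamtsl5 at 0.28 turned without a call there, as did Mmp25, called with all libraries, at -0.36 (adjusted p = 0.317). With limma-voom, Mmp2 stood at -0.70, Adamts2 at -0.31, Timp2 at -0.079, Mmp9 at 0.049, Adamts15 at -0.55, Adamts17 at -0.45, Adamts14 at -0.21 and Adamts8 at -0.014. With the replicate block, Mmp2 stood at -0.61, Adamts15 at -0.31, Adamts2 at -0.21, Adamts14 at -0.15, Adamts17 at -0.12, Mmp24 at -0.052 and Adamts8 at -0.0039. With the fibroblast score Mmp3 stood at 0.43, Mmp10 at 0.13, Mmp19 at 0.098, Adamts7 at 0.066, Mmp23 at 0.058 and Mmp24 at -0.19, and with no filter Mmp13 stood at -0.00090 and Adamts14 at -0.012. Leaving out 1 library gave -1.02 to 0.26 for Mmp2, -0.51 to 0.34 for Adamts2, -0.51 to 0.87 for Mmp13, -1.255 to 0.049 for Mmp3, -0.11 to 0.12 for Timp2 -0.084 to 0.22 for Adamts1, -0.75 to 0.65 for Adamts15, -0.49 to 0.79 for Adamts17, -0.41 to 0.17 for Adamts14, -0.72 to 0.14 for Mmp23 and -0.48 to 0.062 for Mmp19. Signs also turned in fits without 1 library for Adamts7, Adamts8, Mmp10 and Mmp24. The 10 untested members had too few counts for the filter at this depth.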
